A study of Mus musculus with 2 samples.

Results

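The Ras to ERK pathway was examined through 8 genes: the GTPases Hras and Nras, the kinases Araf and Braf, the GTPase-activating protein Rasa1 and the Sprouty inhibitors Spry1, Spry2 and Spry4. Members were the probes that the platform annotation assigns to 1 of these genes alone, with symbols updated by gene ID. Of the 8 genes, 5 had such a probe, out of 13840 named genes on the array: Araf, Rasa1, Spry1, Spry2 and Spry4, with 1 probe each. Hras, Nras and Braf carried no probe of their own in the annotation used here and were not analysed, so no Ras gene of the list has a value and the results concern 1 Raf kinase, 1 RasGAP and 3 Sprouty genes.

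Lung RNA of Rosa26-Foxm1 mice, which carry a Foxm1 transgene named for the Rosa26 locus, was compared with lung RNA of wild type FVB/N mice, male by their labels. The labels give neither strain nor sex for the Rosa26-Foxm1 mice, so these cannot be told apart from the transgene. Mice of both groups had received 1 intraperitoneal dose of 3-methylcholanthrene, a carcinogen (15 µg per g body weight), and 6 weekly doses of butylated hydroxytoluene, a lung tumour promoter (150 µg/g at first, then 200 µg/g), and no untreated lung was used here. Left lobes of 3 mice per group, taken 12 weeks after the carcinogen, were pooled onto 1 array each.

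Ras proteins are membrane-bound switches that are active when loaded with GTP. Receptor tyrosine kinases load them through the adaptor Grb2 and exchange factors such as Sos1, active Ras recruits Raf kinases, and Raf passes the signal to MEK and ERK. RasGAPs such as Rasa1 speed up GTP hydrolysis and switch Ras off, and Sprouty proteins, which ERK signalling itself induces, dampen the route from receptor to ERK. In the developing lung, Sprouty genes restrain the branching that Fgf10 drives through its receptor Fgfr2, and activating Ras mutations are common in chemically induced mouse lung tumours.

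Each genotype has 1 array, so replicates give no spread and the genotypes cannot be tested against each other. The error available is the probe SD, which states how far the log2 difference from 1 probe varies, taken from pairs of probes of the same gene in 317 genes. It was 0.37 for dimmer pairs and 0.23 for pairs brighter than a normalised intensity of 10.5, and it leaves out all variation between mice. Intensities were quantile normalised between the arrays, and the floor, the array median, was at 1.00. Genes that exceeded the floor on 1 or both arrays count as measured, and there were 9518. Their median difference was -0.06 on the log2 scale, Rosa26-Foxm1 minus wild type, and 56.0% of them were below 0. The Foxm1 probe, close to the floor, read 1.23 in Rosa26-Foxm1 and 1.13 in wild-type lung, so it does not check the labels, and whether it detects the transgene was not tested. The lung markers Sftpc and Scgb1a1 were bright on both arrays, at 856 and 1767 in Rosa26-Foxm1 lung against 1228 and 2529 in wild-type lung.

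The promoters of 4 measured members are shown because the transgene encodes a forkhead factor and because ETS factors, among them Etv4 and Etv5, act downstream of ERK. Each sequence is the RefSeq window (GRCm38.p6) that runs from 250 bases before to 50 bases after the gene's start, and capitals mark the forkhead core GTAAACA or the ETS core CCGGAA, searched on both strands. The windows are chrX:20848293-20848592 (plus strand) for Araf, chr13:85289437-85289736 (minus strand) for Rasa1, chr3:37639697-37639996 (plus strand) for Spry1 and chr14:105896770-105897069 (minus strand) for Spry2.
Araf: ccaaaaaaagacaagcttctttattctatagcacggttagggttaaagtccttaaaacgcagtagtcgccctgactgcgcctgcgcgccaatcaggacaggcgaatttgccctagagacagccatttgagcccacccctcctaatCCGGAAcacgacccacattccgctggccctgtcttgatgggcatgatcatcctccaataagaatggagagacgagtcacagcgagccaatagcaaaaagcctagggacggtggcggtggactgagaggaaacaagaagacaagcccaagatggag
Rasa1: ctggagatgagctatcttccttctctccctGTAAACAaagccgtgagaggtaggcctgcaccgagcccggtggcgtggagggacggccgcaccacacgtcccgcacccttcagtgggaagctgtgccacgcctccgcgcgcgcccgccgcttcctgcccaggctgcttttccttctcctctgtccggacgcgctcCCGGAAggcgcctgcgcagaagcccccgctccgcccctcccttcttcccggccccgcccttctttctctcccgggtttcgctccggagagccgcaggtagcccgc
Spry1: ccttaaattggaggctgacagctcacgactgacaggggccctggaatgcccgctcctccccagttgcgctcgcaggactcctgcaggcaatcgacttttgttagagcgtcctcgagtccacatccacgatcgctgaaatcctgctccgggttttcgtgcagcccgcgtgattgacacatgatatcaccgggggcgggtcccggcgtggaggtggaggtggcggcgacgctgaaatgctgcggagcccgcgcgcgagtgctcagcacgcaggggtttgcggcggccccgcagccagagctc
Spry2: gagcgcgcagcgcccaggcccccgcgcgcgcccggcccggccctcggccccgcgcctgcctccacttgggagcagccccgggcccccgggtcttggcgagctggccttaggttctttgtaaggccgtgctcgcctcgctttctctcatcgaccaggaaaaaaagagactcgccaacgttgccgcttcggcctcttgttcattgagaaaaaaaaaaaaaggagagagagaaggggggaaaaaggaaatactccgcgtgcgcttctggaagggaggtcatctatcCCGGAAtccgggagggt

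Among these 4, Rasa1 alone held the forkhead core, at position -220 relative to the start, and 3.65% of all 32851 promoter windows of this length hold it. The ETS core stood at -105 in Araf, at -55 in Rasa1 and at 34 in Spry2, while 14.9% of all windows hold it. These are letter matches only, with no binding measured, and the marked motifs do not overlap. Spry1 held neither motif. Of the members with no value, the window of Nras held the forkhead core at -188, that of Hras the ETS core at -162 and that of Braf neither. A window of Spry4 was not used here.

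All 5 measured members lay within 1.11-fold between the genotypes, and 30.3% of all measured genes lay within that size. None reached 1.5-fold upward in Rosa26-Foxm1 lung, as 7.07% of measured genes did, or 1.5-fold downward, as 8.45% did, together 15.5%. None reached 2-fold, as 1.98% did upward and 1.51% downward. A count of 0 of 5 is near these shares and is no result about the members. On the log2 scale 2 members were above 0 and 3 below, with a median of -0.04. Each difference was smaller than the probe SD, at most 0.67 times it, so the direction of no member is established.

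**Figure D1:**
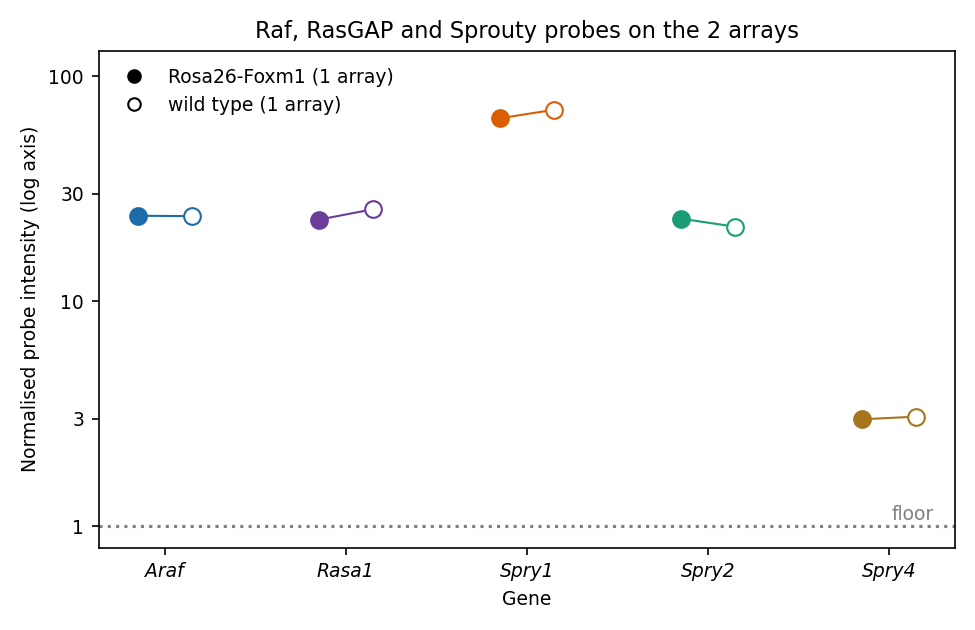
Normalised probe intensity (log axis) of the 5 measured members, with filled points for the Rosa26-Foxm1 array, open points for the wild-type array and a dotted line at the floor of 1.00. The line between the points of a gene is nearly level for each gene, and Spry4 is the member nearest the floor. Heights of different genes cannot be compared, since each is another probe.

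Araf encodes a serine/threonine kinase that active Ras recruits to the membrane and that phosphorylates MEK. Its probe (529650) read 24.0 in Rosa26-Foxm1 and 23.9 in wild-type lung, a log2 difference of 0.01. Only 1.02% of measured genes had a smaller absolute difference. As deposited, before normalisation, the intensities were 24.2 in Rosa26-Foxm1 and 23.7 in wild-type lung.

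Rasa1 encodes p120 RasGAP, which binds activated receptors through its SH2 domains and turns Ras off, and its loss in mice disturbs blood vessel development. Its probe (497261) read 23.0 in Rosa26-Foxm1 and 25.6 in wild-type lung, which is 1.11-fold lower (log2 difference -0.15). This was the largest absolute difference among the members. It was 0.67 times the probe SD, and 39.3% of measured genes had a lower value. The deposited intensities were 23.1 in Rosa26-Foxm1 and 25.2 in wild-type lung.

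The 3 Sprouty genes, which encode cysteine-rich membrane-associated inhibitors, did not share a direction. Spry1 (probe 404045) read 65.1 in Rosa26-Foxm1 and 71.0 in wild-type lung, a log2 difference of -0.12. As deposited, Spry1 was at 67.6 in Rosa26-Foxm1 and 68.9 in wild-type lung, closer together than after normalisation. Spry2 (probe 872375), the Sprouty best known from airway branching, read 23.3 in Rosa26-Foxm1 and 21.5 in wild-type lung, which is 1.09-fold higher (log2 difference 0.12). The deposited Spry2 intensities were 23.4 in Rosa26-Foxm1 and 21.3 in wild-type lung.

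Spry4 (probe 529472), an inhibitor of growth factor signalling that is prominent in mesenchyme and endothelium, read 2.98 in Rosa26-Foxm1 and 3.07 in wild-type lung, a log2 difference of -0.04. Its deposited intensities were 2.93 in Rosa26-Foxm1 and 3.12 in wild-type lung. Being nearer the floor than the other members, it has the larger probe SD of 0.37. The gap between the differences of Spry2 and Spry1 was 0.24, against an error of 0.33 from the probe SDs of both. The gap between Spry2 and Rasa1, the widest among the members, was 0.27 with the same error. So the members could not be told apart from each other by their response.

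**Figure D2:**
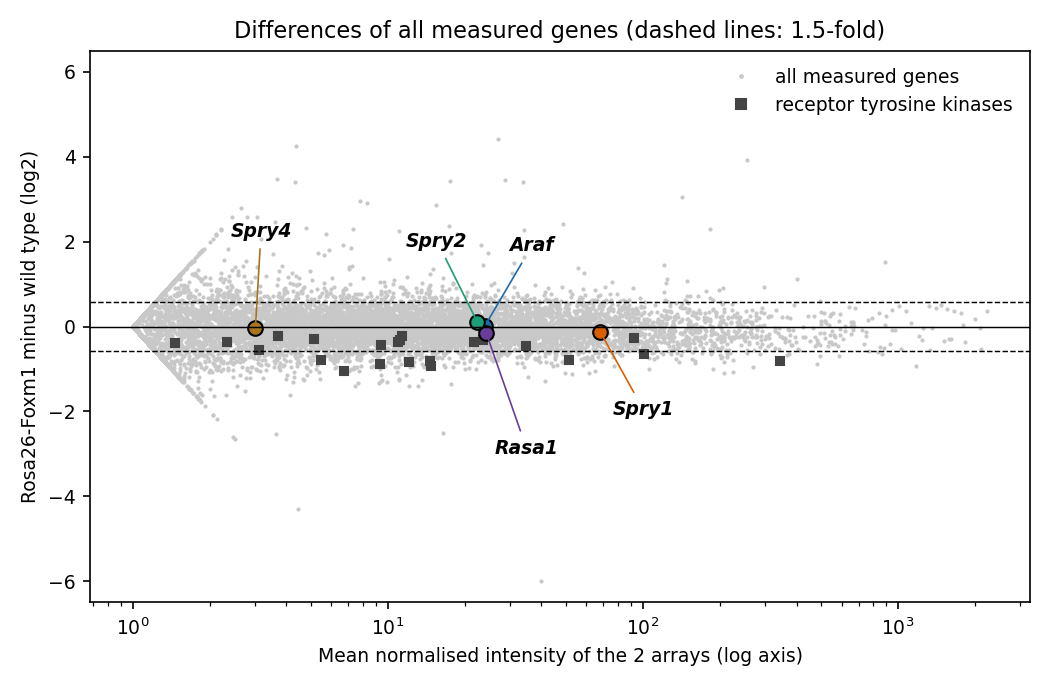
Log2 difference, Rosa26-Foxm1 minus wild type, of all 9518 measured genes against their mean normalised intensity (log axis), with members as coloured circles and receptor tyrosine kinases as dark squares. The 5 members sit at the centre of the cloud between -0.15 and 0.12, and all 22 receptors lie below 0; slanted edges at the left come from values set to the floor.

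The receptors upstream of the members read lower in Rosa26-Foxm1 lung. Of 29 listed receptor tyrosine kinases, 22 were measured and all 22 were below 0, with a median log2 difference of -0.45. Of these, 9 were at least 1.5-fold lower in Rosa26-Foxm1 lung, or 8 with median scaling or the deposited values. The share over all measured genes was 8.45%. None was that much higher, where the share was 7.07%, and 56.0% of all measured genes were below 0. The lists were chosen with earlier results of these data known, so these counts are not independent of the data. The FGF receptor Fgfr1 (-1.05, at 4.68 in Rosa26-Foxm1 and 9.69 in wild-type lung), the endothelial receptor Tie1 (-0.93) and the PDGF receptor Pdgfra (-0.88) were the lowest. At the other end, Ntrk2 and the ephrin receptor Epha2 were both at -0.23 and Axl at -0.28. Spry1 and Spry2 are known to act on signals from FGF receptors, of which Fgfr2 was at -0.30.

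Endothelial markers read lower along with the receptors. Of 23 measured, 22 were below 0, or 19 with median scaling or the deposited values. Their summed intensity was 2036 in Rosa26-Foxm1 and 3078 in wild-type lung. None of the defining markers Pecam1, Cdh5 and Kdr was at the floor, while Erg was in Rosa26-Foxm1 lung. The lowest of the 23 were Calcrl (-1.15) and Epas1 (-1.10), and the highest were Vwf (0.49) and Egfl7 (-0.06). Of the 22 receptors, 16 stand in no list of cell type markers, and all 16 were below 0 with a median of -0.38. A receptor outside these lists may still come from endothelial or other listed cells, so the split does not separate receptors from cell types. In bulk lung, fewer cells of a type and less RNA per cell cannot be told apart, and the part of the endothelial markers in the receptor values was not tested. Spry1 and Spry4, which endothelial cells also express, differed by -0.12 and -0.04 in the same RNA. Both differences were smaller than the probe SD, and the part of endothelial cells in these signals was not tested.

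Adaptors and exchange factors for Ras or its relative Rap (Rapgef1 acts on Rap) had a median of -0.44 over 12 measured genes, with 9 below 0 and 2 past 1.5-fold downward. Over all measured genes 56.0% were below 0 and 8.45% past 1.5-fold downward. Grb2, the adaptor that Sprouty proteins also bind, read 64.9 in Rosa26-Foxm1 and 86.7 in wild-type lung (-0.42). The exchange factors Rasgrf2 (-0.79), Rasgrp2 (-0.71) and Rasgrp1 (-0.57) were the lowest, and Rapgef1 (0.14), Shc1 (0.11) and Rasgrp3 (0.01) the highest. A second Rasgrp2 probe read -0.08, so its value depends on the probe. Sos1 was below the floor on both arrays.

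The other Ras and Rap GTPase-activating proteins can be set beside Rasa1. All 6 measured were below 0, with a median of -0.55, and 3 were at least 1.5-fold lower, or 1, Rasa3, with median scaling or the deposited values. The shares of all measured genes were 56.0% below 0 and 8.45% at least 1.5-fold lower. Dab2ip read 95.5 in Rosa26-Foxm1 and 149 in wild-type lung (-0.64), the RasGAP Rasa3 was also at -0.64, and the Rap-directed Sipa1 was at -0.59. Rasa2, the relative of Rasa1 with the smallest difference (-0.08), Rasal2 (-0.35) and Sipa1l1 (-0.51) stood at the upper end. Rasa1 at -0.15 was above 5 of these 6 genes, of which Rasal2 was close to the floor (1.55 in Rosa26-Foxm1 and 1.98 in wild-type lung). The ranking was not tested, and Rasa1 itself differed by less than the probe SD. Nf1, the neurofibromin RasGAP, was below the floor on both arrays.

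Of 13 other measured GTPases of the Ras family, 7 were above 0 and 6 below, with a median of 0.02. The median has no settled sign: it was -0.02 with median scaling and with the deposited values, -0.16 with the median over probes and -0.35 with the floor at the 75th percentile. Rap2b has 2 measured probes, at 0.19 and -0.52. The relatives Rras (0.39) and Mras (0.34) were among the highest with Rasl10a (0.58), and Rasd1 (-0.66), Rerg (-0.53) and Rras2 (-0.47) the lowest. Only Rasd1 was past 1.5-fold, joined by Rasl10a with loess scaling (0.59). Enzymes that farnesylate, cleave and move Ras proteins lay within 1.5-fold in all 9 cases (median 0.01), between -0.26 for Zmpste24 and 0.32 for the farnesyltransferase subunit Fntb. The others at the ends of that list were Rabac1 (0.15), Icmt (0.10), Rce1 (-0.17) and Lypla1 (-0.14).

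Near Araf in the cascade, among 13 genes that scaffold or regulate Raf, 9 were below 0 and 1, Brap (-0.62), a Ras-responsive regulator of the Raf to MEK step, was at least 1.5-fold lower, a call lost with loess scaling (-0.57). The phosphatase subunit Ppp1cb (-0.48) and the 14-3-3 protein Ywhaz (-0.37, with -0.21 and -0.04 by its other probes) followed, and Mras, Lamtor3 (0.21) and Pebp1 (0.05) were the highest. Among all measured genes, 56.0% were below 0 and 8.45% at least 1.5-fold lower. The direct Araf substrates were close to even: Map2k1 read 55.7 in Rosa26-Foxm1 and 58.0 in wild-type lung (-0.06), and Map2k2 read 54.8 in Rosa26-Foxm1 and 51.3 in wild-type lung (0.10). Of the kinases downstream, Mknk2 was at -0.47 and Rps6ka3 at -0.28, and Rps6ka5 was at the floor in Rosa26-Foxm1 lung, with a bound of -0.28.

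**Figure D3:**
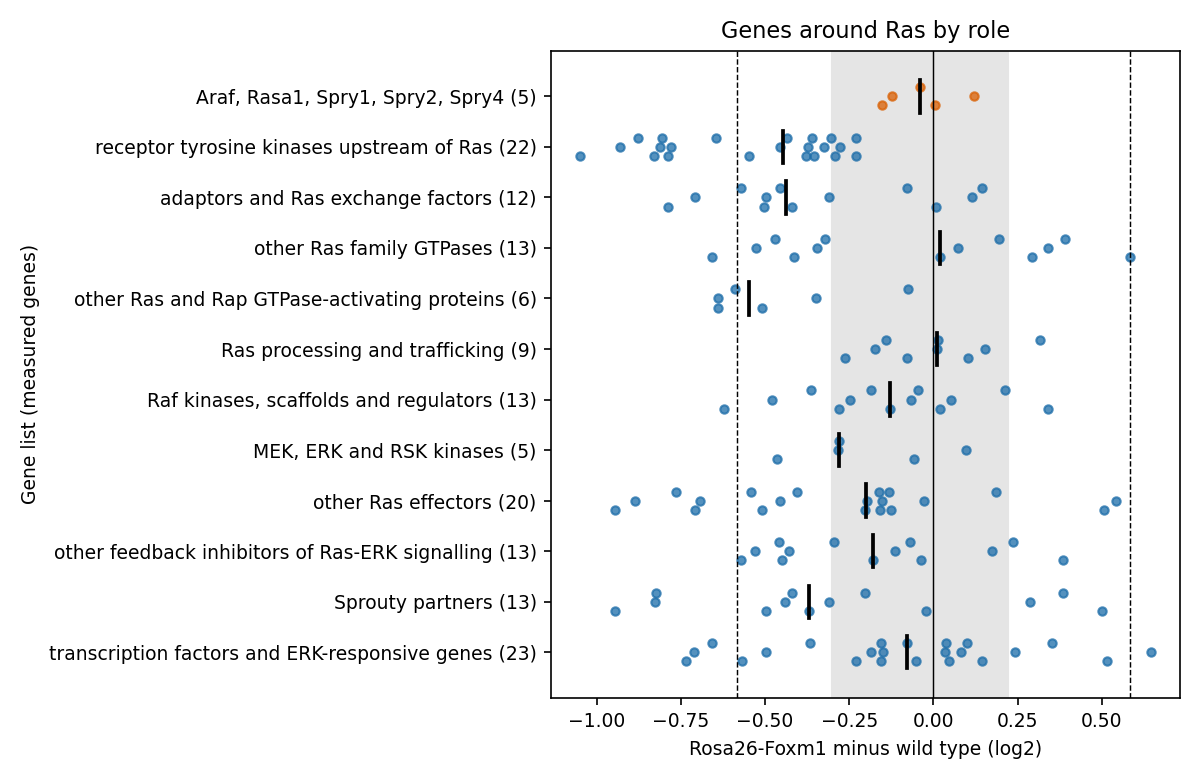
Log2 differences, Rosa26-Foxm1 minus wild type, of the measured genes of each list, 1 point per gene, with black bars at the medians, dashed lines at 1.5-fold and grey from the 25th to the 75th percentile of all measured genes (-0.30 to 0.22). The 5 members in the top line lie between -0.15 and 0.12, and the medians of the lists run from -0.55 for the GTPase-activating proteins to 0.02 for the other Ras family GTPases; some genes stand in 2 lists.

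Other feedback inhibitors of the pathway can be set beside the Sprouty genes. Of 13 measured, 10 were below 0 and none was past 1.5-fold (median -0.18), though the nearest, Spred1, was past it downward with median scaling and with the deposited values (-0.63 in both), as Spred2 was with no floor or with the floor at the 25th percentile, where 1 newly measured gene was past it upward. For comparison, 56.0% of all measured genes were below 0 and 15.5% past 1.5-fold either way. The Sprouty relatives Spred1 and Spred2 were close to the floor. Spred1 read 1.36 in Rosa26-Foxm1 and 2.01 in wild-type lung (-0.57), and Spred2, at the floor in Rosa26-Foxm1 lung, was at least 1.37-fold lower. The ERK phosphatase Dusp6, a common readout of ERK signalling, read 45.1 in Rosa26-Foxm1 and 55.3 in wild-type lung (-0.29), and Dusp7 was at -0.53. The ubiquitin ligase Cbl (0.38), Dusp1 (0.24) and Errfi1 (0.17) were the highest.

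Proteins known to bind or act with Sprouty had a median of -0.37 over 13 genes, of which 10 were below 0 and 3 past 1.5-fold downward. In all measured genes the shares were 56.0% below 0 and 8.45% past 1.5-fold downward. The 3 genes were Plcg1, a phospholipase whose activation Sprouty limits, at 4.51 in Rosa26-Foxm1 and 8.70 in wild-type lung (-0.95), caveolin 1 (Cav1) and the adaptor Sh3kbp1, both at -0.83. A second Plcg1 probe was below the floor on both arrays, so its value rests on 1 probe. With the floor at the 75th percentile Plcg1 was no longer past 1.5-fold. Cav1 is also in the list of alveolar type I markers here. Of 11 measured, 7 were below 0, or 5 with median scaling or the deposited values. They ran from Col4a3 (a bound of -1.09) and Scnn1g (-0.92) to Pdpn (0.24) and Emp2 (0.25), and the part of such cells was not tested. Cav3 (0.50), Cbl and Ppp2ca (0.29) stood highest.

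Genes that ERK signalling acts on went both ways, with 10 of 23 above 0, 13 below and a median of -0.08. Of all measured genes, 56.0% were below 0, 8.45% at least 1.5-fold lower and 7.07% at least 1.5-fold higher. The FGF-responsive factors Etv4 and Etv5, placed upstream of Sprouty genes in the developing lung, differed from each other: Etv4 read 2.85 in Rosa26-Foxm1 and 2.77 in wild-type lung (0.04), whereas Etv5 read 9.94 in Rosa26-Foxm1 and 16.3 in wild-type lung (-0.71). Spry1, Spry2 and Spry4, at -0.12, 0.12 and -0.04, each differed by less than the probe SD. A relation of the Sprouty genes to Etv4 or Etv5 was not tested. The growth factor Vegfa (-0.74) and Ets2 (-0.66) were lower by at least 1.5-fold along with Etv5, and Myc (0.65) was the 1 gene at least 1.5-fold higher, ahead of Elk4 (0.52) and Phlda1 (0.35). The call of Ets2 was lost with loess scaling (-0.57), with median scaling and with the deposited values (-0.41 in both), and that of Myc with the floor at the 75th percentile. Etv5 is also a type II cell marker here, of which 10 of 14 measured were below 0 (Hc was lowest at -0.98, and Sftpa1 at 0.51 and Sftpd at 0.93 were highest), and their part was not tested.

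Genes listed here as Ras effectors other than Raf, or as related proteins, were below 0 in 17 of 20 cases (median -0.20). Of these 20, 5 were at least 1.5-fold lower. Rassf2 (1.40 in Rosa26-Foxm1 and 2.69 in wild-type lung), Rassf8 (-0.89) and Rin3 (-0.76) were the lowest, and Rassf2 and Rassf8 were close to the floor. Tiam2 (0.54), Rassf4 (0.51) and Ralgds (0.19) were above 0. Over all 145 measured genes of the lists around the members, each counted once, 108 were below 0, 27 past 1.5-fold downward and 1 upward. The shares over all measured genes were 56.0%, 8.45% and 7.07%, and the lists were chosen with earlier results of these data known. The median of the 145 genes was -0.28, against -0.06 over all measured genes. Without genes in a cell type marker list, 100 of 137 were below 0, 20 past 1.5-fold downward and 1 upward, with a median of -0.23. The median of the 5 members was -0.04.

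Other cell type markers in the same RNA went both ways, and their part in the values above was not tested. Of 15 macrophage markers 10 were above 0 (summed intensity 1968 in Rosa26-Foxm1 and 1784 in wild-type lung), with Gpnmb at 4.42, Mmp12 at 3.46, Marco at a bound of -0.75 and Siglecf at -1.26. Of 18 fibroblast and smooth muscle markers 16 were below 0 (summed intensity 1322 in Rosa26-Foxm1 and 1616 in wild-type lung), from Npnt (-0.98) and Pdgfra (-0.88) to Lum (0.52) and Mfap5 (0.56). Club and ciliated cell markers had 5 of 10 below 0 (from Ces1d at -0.86 and Cyp4b1 at -0.72 to Scgb3a1 at 0.38 and Spag17 at 0.84), lymphocyte markers 7 of 13 (from Ms4a1 at -0.96 and Cd79b at -0.54 to Mzb1 at 1.59 and Jchain at 3.06) and neutrophil markers 6 of 9 (from Ngp at -1.28 and Csf3r at -0.64 to Prtn3 at 0.64 and Cd177 at 0.77). Reference genes ran from -0.45 (Sdha) and -0.18 (Pgk1) to 0.49 (B2m) and 0.51 (Tbp), with a median of 0.25, so that the spread among them exceeded the differences of all 5 members.

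**Figure D4:**
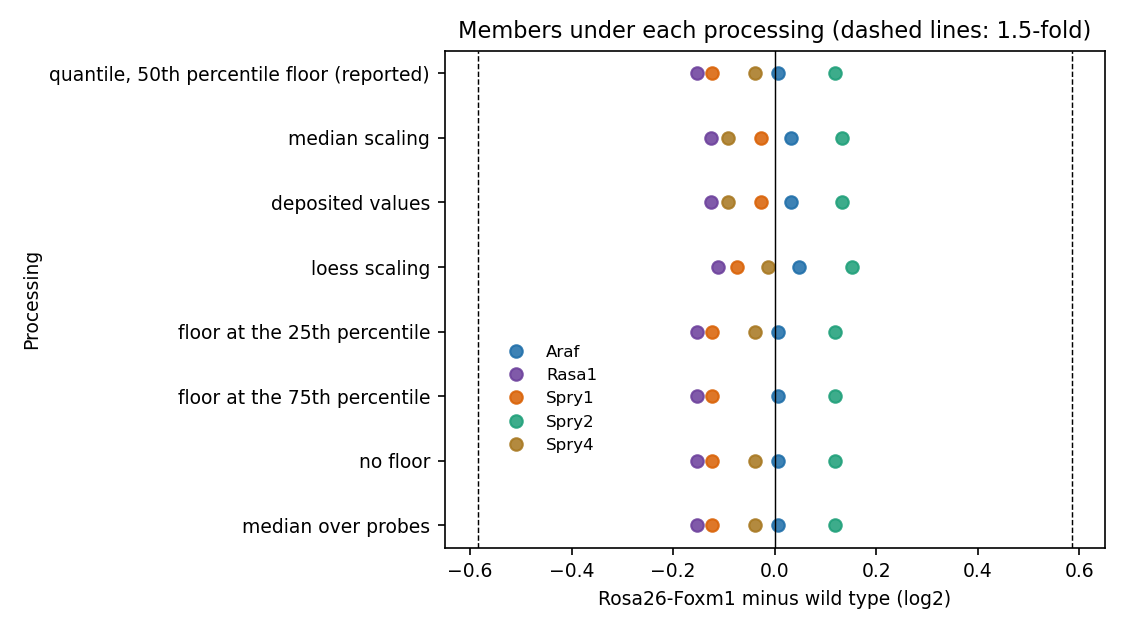
Log2 difference, Rosa26-Foxm1 minus wild type, of the 5 members under 8 ways of processing, with dashed lines at 1.5-fold. The colours keep to their side of 0 in each line and stay between -0.15 and 0.15. Lines that change only the floor or the choice of probe repeat the reported values, since each member has 1 probe above the floor. Spry4 has no value with the floor at the 75th percentile.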

How the data were processed

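Lung RNA was measured on 2 one-colour arrays, 1 per genotype, each with RNA pooled from 3 mice. Per the labels' protocols, an Applied Biosystems chemiluminescent kit served to make digoxigenin-labelled cRNA. The authors deposited 1 linear intensity per probe and array, with a median of 1.00 on both arrays; for image software, background correction and scaling the sources used here give nothing. Of 33012 probes, 14411 had 1 gene in the platform annotation, 247 had several genes (left unnamed) and for 18354 none was listed. Symbols were updated by gene ID to RefSeq (GRCm38.p6), which 13832 of 13840 genes matched.

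Log2 intensities were quantile normalised, and values under the 50th percentile of an array were set to it. A gene took its measured probe with the highest mean. Where the floor cuts off 1 array, a difference is a bound. No test, and no p-value, was possible, and precision is limited by the number of arrays. The alternatives tried were the deposited values as they stand, median scaling, loess with a span of 0.3, no floor or a floor at the 25th or 75th percentile, the median over probes, and 2-fold as the size. The steps were tested on simulated data. The genes named are the members, 14 core genes of the pathway where measured, and up to 3 measured genes at each end of each pathway list (2 for marker lists). The members and lists were chosen with earlier results of these data known. Python 3.11.15 was used with numpy 2.4.6, pandas 2.3.3 and statsmodels 0.14.6.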

Additional observations from a re-analysis of the deposited data

How the results depend on the processing

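The log2 differences of the members kept their sign under the scalings tried, though sign was never beyond the probe SD. They ran from -0.15 to -0.11 for Rasa1, -0.12 to -0.03 for Spry1 and -0.09 to -0.01 for Spry4. Above 0, they ran from 0.01 to 0.05 for Araf and from 0.12 to 0.15 for Spry2. Each member has 1 probe, above the floor on both arrays, so floor and choice of probe could only remove its value, not change it. Median scaling and the deposited values gave nearly the same differences, so few of the settings could have changed a sign. Spry4 could not be measured once the floor was at the 75th percentile. No member passed 1.5-fold or 2-fold in any setting. The receptor tyrosine kinase median ran from -0.45 to -0.38, the value of -0.38 being that without marker genes, an alternative chosen after seeing the data. With the floor at the 25th percentile 1 of 23 receptors, then newly measured, was above 0.

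Counts over all genes followed the floor, which sets how many dim genes count. At least 1.5-fold higher were 673 genes, against 1361 with the floor at the 25th and 236 at the 75th percentile; lower were 804, against 1547 and 288. At least 2-fold higher were 188, against 541, 44 and, with no floor, 399; lower were 144, against 534, 21 and 366. A floor at the 75th percentile moved the median of the other Ras family GTPases to -0.35 (fewer genes) and that of lymphocyte markers to 0.40. The alveolar type I median was 0.12 with median scaling and 0.12 with the deposited values, against -0.20; the cause was not tested. No paired analysis was possible because each group has 1 array, and for the same reason no replicate could be left out. A list median or a member counted as moved if it shifted by more than the probe SD over all pairs, 0.31.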

Other observations

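Genes at least 1.5-fold apart between the arrays were counted by the motifs in their promoter windows. Of 2242 measured genes with the ETS core CCGGAA, which the windows of Araf, Rasa1 and Spry2 hold, 231 (10.3%) were that far apart either way, against 938 (17.1%) of 5484 genes whose windows lack it. Among genes with a mean above the 75th percentile of the array, the shares were 7.03% of 1394 genes and 11.0% of 2900. For the forkhead core GTAAACA, present in the Rasa1 and Nras windows, the shares were 15.0% of 254 genes with it and 15.1% of 7472 without. Among genes with a mean above the 75th percentile, they were 6.20% of 129 genes (8 genes) with it and 9.82% of 4165 without. None of these shares was tested, and other properties of such promoters were not compared.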
